A study of Mus musculus with 8 samples.

Results

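The enzymes and carriers that bring fatty acids into a muscle fibre, oxidise them and release them from stored triglyceride were followed in calf muscle (gastrocnemius) of mice with an intact or a disrupted gene for the glucocorticoid receptor. The set held 32 genes listed by name for their place in the pathway, with earlier results of these data known. A gene was measured where the array carried a probe set annotated to it alone, and its brightest such probe set over all 8 arrays stood for it. That gave 30 of the 32 genes, out of 18193 genes measured in this way. Acsl1 had no annotated probe set, and Cpt1b, the muscle form of the enzyme that commits fatty acids to mitochondria, shared its 1 probe set among 3 gene symbols, so both are not analysed here.

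Control muscle came from 4 samples labelled wild type, and GR_KO muscle from 4 samples labelled as knockouts of the glucocorticoid receptor, all on a C57/Bl6J background and all kept on a daily light and dark cycle. The design text names the knockout line GR(i)skm-/-. The labels give no age, sex, hormone treatment, feeding state or driver of the deletion. They also leave unsaid whether each sample is its own animal, and the p-values rest on the spread among these 8 samples, part of which may be technical. Each sample was whole-muscle total RNA on 1 Affymetrix array, and a lower signal of a transcript can mean fewer cells of a type or less RNA per cell, which cannot be told apart.

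Long-chain fatty acids enter the fibre with the help of CD36 and transport proteins, are bound in the cytosol by FABP3, and are coupled to coenzyme A by acyl-CoA synthetases. The carnitine shuttle carries them into the mitochondrion, where each turn of beta-oxidation removes an acetyl unit through a dehydrogenase, a hydratase, a second dehydrogenase and a thiolase, and the electrons pass to the respiratory chain through the electron transfer flavoprotein. Fatty acids also come from the fibre's own triglyceride droplets, which adipose triglyceride lipase and monoglyceride lipase break down and the DGAT enzymes refill. Glucocorticoids are known to mobilise fat and to shift fuel use in muscle. The comparison asks whether these transcripts differ in whole muscle of the knockout line, where some cells may keep an intact receptor gene.

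The labels were checked on the receptor gene. Groups did not overlap for 2 of the 6 probe sets of Nr3c1, and 1 of these read 377, 307, 307 and 352 on the control arrays and 134, 79, 76 and 94 on the GR_KO arrays. All 6 had a log2 fold change below 0, from -1.96 to -0.32 (fit over all probe sets), and where they lie against the deletion was not analysed here. The 10 markers of skeletal muscle fibres, such as Ckm and Acta1, were all above the signal filter, while the liver markers Alb, Apoa1 and Ttr and the brown fat marker Ucp1 were all below it. Array medians lay between 18 and 26. Control replicate 4 stood apart, with spike-in signals 3.32-fold those of the other controls, a skeletal muscle fibre score of 0.81 against -0.32 to -0.15 in the other controls, and a slow or oxidative fibre score of -0.86 against -0.26 to 0.71 (median over the list of log2 signals, each centred on the gene's mean over 8 arrays). Its ratio of 3′ to 5′ signal of Gapdh, a sign of RNA integrity, was 1.20, where the other 7 arrays had 0.797 to 0.915. The same ratio of beta-actin, 1.73, lay within the range of the other arrays, 0.991 to 1.84. That of pyruvate carboxylase, 36.7, also lay within their range, 19.6 to 42.3. Among the 30 measured genes, leaving out this array moved some log2 fold changes of more than 0.1 in size by over 1.5 times. For these the value without it stands beside the full one. Such values are not given for genes of the further lists. The part of RNA integrity in these differences was not tested.

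The transcripts of the pathway showed no difference between the groups that passed the threshold. All 30 genes were above the signal filter and entered the test, and 11 of them were brighter than 90% of the 11062 genes tested. None of the 30 passed an adjusted p of 0.05 in limma, where 0.0542% of all genes tested did, and their adjusted p-values lay between 0.880 and 0.986. An unadjusted p under 0.05 was reached by 3 genes, the monoglyceride lipase gene Mgll and the short-chain dehydrogenase gene Acads, higher in GR_KO muscle, and the triglyceride synthesis gene Dgat2, lower. That is 10% of the 30 genes, where 4.63% of all genes tested came under the same p. The count of 3 was 0 without control replicate 4 and 0 with arrays centred on their medians. Over all 11062 genes tested, the count at the same p was 512, against 505 and 267 under these 2 settings. None of the 30 had groups that did not overlap, against 2.58% of all genes.

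Directions were mixed. The log2 fold change, GR_KO against control, was above 0 for 14 genes and below 0 for 16, with a median of -0.03, and above 0 for 52.2% of all genes tested, with a median of 0.01. Values ran from -0.38 for Etfa to 0.60 for Mgll, 8 genes were more than 0.3 away from 0 and 10 were within 0.1 of it. The size of the log2 fold change had a median of 0.18 over the 30 genes and 0.16 over all genes tested. For 15 of the 30 genes, or 50%, the 95% interval of the fit, not adjusted for the number of genes, lay within a 1.5-fold difference either way, a log2 fold change of 0.58, and 42% of all genes tested met the same bound. The distance from the estimate to either end of that interval ran from 0.28 to 0.74 over the 30 genes, with a median of 0.39. An estimate has to lie further than this from 0 to reach an unadjusted p under 0.05. With 4 arrays a group, a true difference of that size can be missed.

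**Figure D1:**
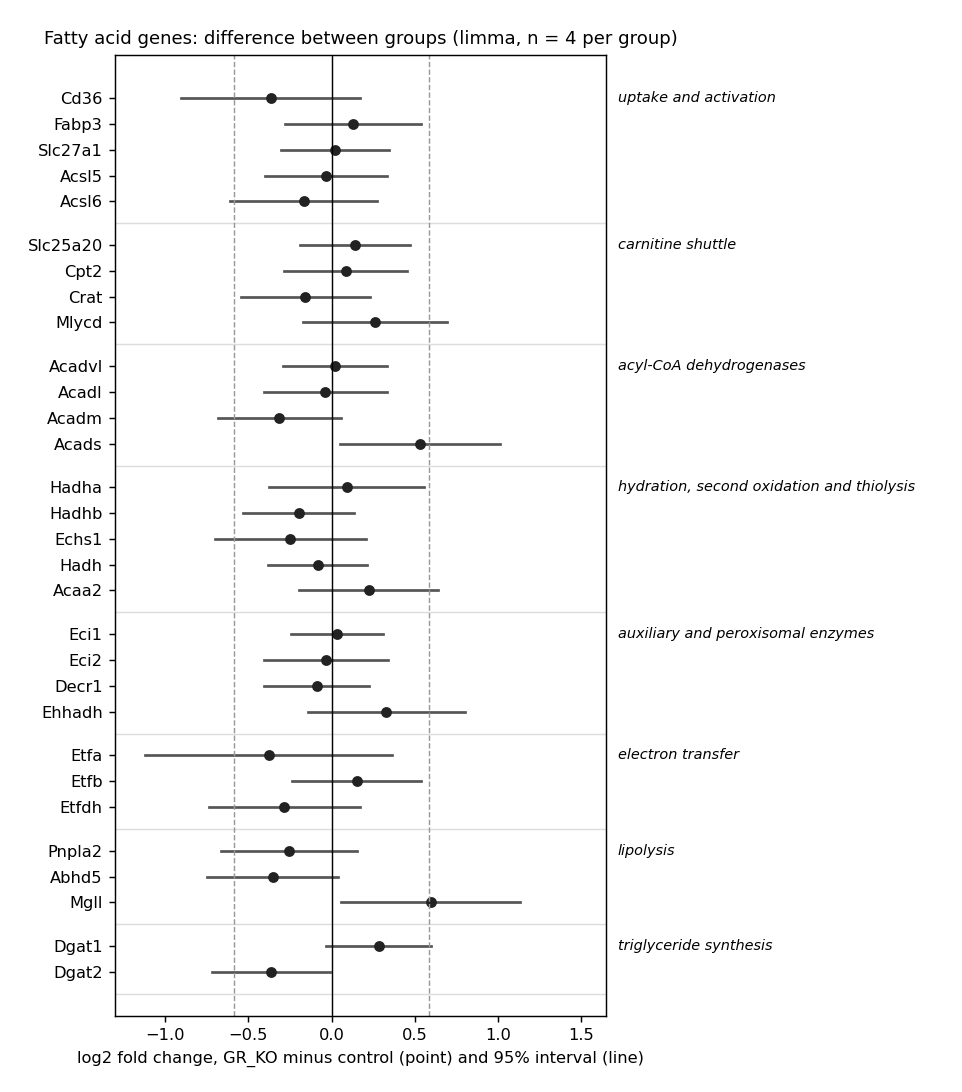
Log2 fold change of 30 fatty acid genes, GR_KO minus control (points), with the 95% interval of the limma fit (lines, n = 4 arrays per group), grouped by role. The dashed lines mark a 1.5-fold difference either way; the intervals of Mgll, Acads and Dgat2 leave out 0, and those of 15 genes lie between the dashed lines.

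Uptake and activation genes had log2 fold changes from -0.37 to 0.13 in 5 measured genes, 2 of them above 0. Cd36, the fatty acid translocase of the cell surface, had signals of 1176, 663, 792 and 1163 in control muscle and 1065, 522, 647 and 723 in GR_KO muscle. The 2 groups overlapped over most of their range, and the highest GR_KO array lay above 2 of the controls. Its mean was 948.5 ± 261 in control and 739 ± 232 in GR_KO muscle (SD, n = 4), a log2 fold change of -0.37 ± 0.24 (SE, limma unadjusted p = 0.162, adjusted p = 0.880). Its further probe sets had -0.26 and -0.38. Without control replicate 4 the value was -0.25, and without GR_KO replicate 2 it was -0.22.

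Fabp3, the fatty acid binding protein of the cytosol, was among the brightest of the 30 genes, at 2224, 2265, 2767 and 1710 in control and 2038, 2257, 2277 and 3256 in GR_KO muscle. Its lowest array was control replicate 4 and its highest GR_KO replicate 4, with the other arrays interleaved (log2 fold change 0.13, 95% interval from -0.28 to 0.54), and without control replicate 4 the value was 0.0060. The transport protein gene Slc27a1 read 159, 170, 140 and 131 against 142, 137, 170 and 158, a log2 fold change of 0.02 with an interval from -0.30 to 0.34. The acyl-CoA synthetase gene Acsl5 read 98, 106, 122 and 99 against 132, 93, 95 and 98, so that 3 of the GR_KO arrays lay at or below the lowest control (log2 fold change -0.03, interval from -0.40 to 0.33). Its relative Acsl6 read 180, 131, 176 and 226 against 192, 125, 137 and 179, a log2 fold change of -0.17 that was -0.045 when control replicate 4, its highest array, was left out.

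Genes of the carnitine shuttle were the group with the most values above 0, 3 of 4, with a median log2 fold change of 0.11. The translocase gene Slc25a20, which exchanges acylcarnitine for carnitine across the inner membrane, read 1029, 811, 766 and 703 in control and 909, 772, 957 and 985 in GR_KO muscle (log2 fold change 0.14, 95% interval from -0.19 to 0.47, and 0.066 without control replicate 4). Cpt2, which hands the fatty acid back to coenzyme A inside the mitochondrion, read 545, 722, 701 and 481 against 559, 575, 728 and 716. The GR_KO arrays of Cpt2 ran from 559 to 728 within or just above the control range, and its log2 fold change of 0.08 had an interval from -0.29 to 0.45 and was -0.025 without control replicate 4. Mlycd, which removes malonyl-CoA, the inhibitor of fatty acid entry, read 474, 575, 620 and 372 against 454, 639, 599 and 743. Its log2 fold change of 0.26 ± 0.20 (SE) was 0.12 without control replicate 4, its lowest array. Crat, which buffers acetyl-CoA as acetylcarnitine, had -0.16 from signals of 1466, 1865, 1809 and 1120 against 1174, 1406, 1551 and 1393, and -0.31 with control replicate 4 left out.

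The 4 acyl-CoA dehydrogenases, which take the first electrons at successive chain lengths, had log2 fold changes of both signs. Acadvl, for very long chains, read 1567, 1670, 1638 and 1547 against 1278, 1656, 1788 and 1863. The control arrays of Acadvl lay close together, and the GR_KO arrays surrounded them on both sides (log2 fold change 0.02, interval from -0.29 to 0.33). Acadl, for long chains, read 1241, 981, 1442 and 1225 against 1193, 1109, 969 and 1505, a log2 fold change of -0.04 with an interval from -0.41 to 0.33. Acadm, for medium chains, read 1795, 1327, 1774 and 1911 in control and 1735, 1200, 1168 and 1391 in GR_KO muscle. In Acadm 3 controls lay above every GR_KO array, and control replicate 2 lay below 2 of them. Its mean was 1702 ± 257 against 1374 ± 260 (SD, n = 4), a log2 fold change of -0.31 ± 0.17 (SE, limma adjusted p = 0.880), with a 95% interval from -0.68 to 0.06.

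Acads, for short chains, had the second highest log2 fold change of the 30 genes. Its signals were 497, 646, 621 and 377 in control and 529, 872, 750 and 953 in GR_KO muscle. The GR_KO arrays of replicates 2, 3 and 4 lay above all controls, and GR_KO replicate 1 lay within the control range. The mean was 535 ± 124 in control and 776 ± 185 in GR_KO muscle (SD, n = 4), and the log2 fold change was 0.53 ± 0.22 (SE, limma unadjusted p = 0.0329, adjusted p = 0.880). Acads had 1 probe set. Without control replicate 4, its lowest array, the log2 fold change was 0.38, and with any single array left out it lay between 0.38 and 0.71.

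**Figure D2:**
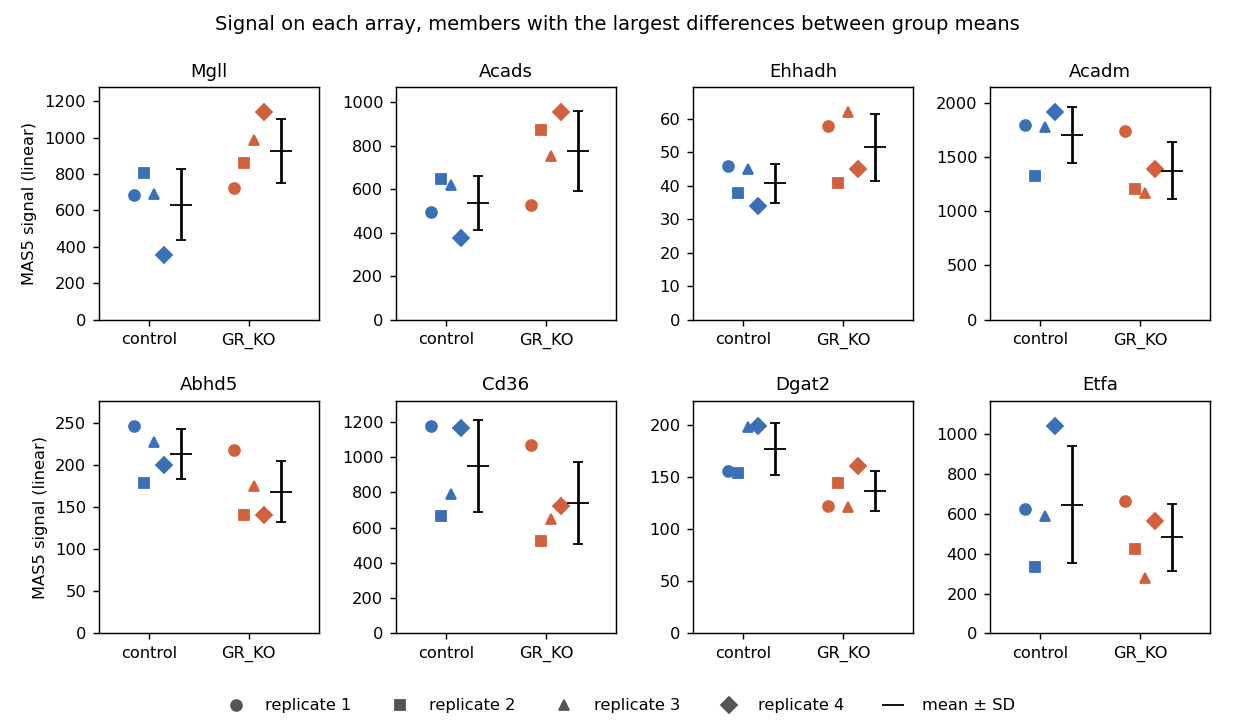
MAS5 signal (linear axis from 0) of the 8 genes whose log2 fold change was more than 0.3 from 0, on each control (blue) and GR_KO (orange) array, with the mean and SD of 4 arrays in black. The groups overlap in each of the 8 genes; control replicate 4 (blue diamond) is the lowest array for Mgll, Acads and Ehhadh and the highest for Acadm, Etfa and Dgat2.

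The 5 genes of the later steps of beta-oxidation had log2 fold changes from -0.25 to 0.22, 2 of them above 0. Hadha and Hadhb encode the 2 subunits of the trifunctional protein, which handles long chains. Hadha read 1043, 1137, 1470 and 743 in control and 925, 1100, 1097 and 1491 in GR_KO muscle, and Hadhb read 1747, 1666, 2190 and 1592 against 1510, 1466, 1387 and 1906. Control replicate 3 and GR_KO replicate 4 were the highest arrays of their group for both subunits, and control replicate 4 was the lowest control for both. The log2 fold changes were 0.09 for Hadha and -0.20 for Hadhb, with 95% intervals from -0.38 to 0.56 and from -0.53 to 0.13. Without control replicate 4 that of Hadha was -0.08.

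Echs1, the hydratase for short chains, had the same highest arrays, reading 347, 362, 530 and 294 against 271, 325, 266 and 420 (log2 fold change -0.25). Without control replicate 3 the value was -0.08. Hadh, the hydroxyacyl-CoA dehydrogenase for shorter chains, was the brightest of the 30 genes, at 4926, 4344, 4297 and 5387 against 4433, 3910, 4815 and 4711. Its arrays differed little in proportion, and the interval of its log2 fold change of -0.08 ran from -0.38 to 0.21. Its chosen probe set is of the _x_at kind, which can bind other transcripts, and a dimmer probe set of the same gene had 0.03. Acaa2, the thiolase that releases acetyl-CoA, read 854, 966, 1007 and 638 against 750, 1052, 1002 and 1246, a log2 fold change of 0.22, with -0.02 and -0.33 at its further probe sets. Without control replicate 4, its lowest array, the value was 0.084.

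Auxiliary enzymes deal with double bonds that the main cycle cannot pass. Eci1, an enoyl-CoA isomerase, had the narrowest interval of the 30 genes, from -0.24 to 0.31, with signals of 1241, 1198, 1029 and 1122 in control and 1032, 1190, 1269 and 1200 in GR_KO muscle. Its relative Eci2 read 289, 243, 368 and 349 against 365, 269, 269 and 310 (log2 fold change -0.03), and the dienoyl-CoA reductase gene Decr1 read 513, 471, 566 and 492 against 470, 402, 469 and 590 (-0.09). Ehhadh, the bifunctional enzyme of peroxisomes, was the dimmest of the 30 genes. It read 46, 38, 45 and 34 against 58, 41, 62 and 45, and its log2 fold change of 0.33 ± 0.21 (SE) had an interval from -0.14 to 0.80. GR_KO replicates 1 and 3 lay above all controls and the other 2 within their range.

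Of the 3 electron transfer genes, 1 had a value above 0. Etfa, the alpha subunit of the electron transfer flavoprotein, read 624, 332, 588 and 1041 in control and 663, 422, 280 and 566 in GR_KO muscle, and Etfb, the beta subunit, read 2401, 2840, 2842 and 2108 against 2051, 3013, 3010 and 3334. Control replicate 4 was the highest array for Etfa and the lowest control for Etfb. The log2 fold change of Etfa, the lowest of the 30 genes, was -0.38 ± 0.34 (SE, limma adjusted p = 0.881) and had the widest interval, from -1.12 to 0.36. With control replicate 4 left out the value was -0.11, with GR_KO replicate 3 left out -0.14, and with control replicate 2 left out -0.66. Etfb had 0.15, with an interval from -0.24 to 0.54, and 0.063 when control replicate 4 was left out. Etfdh, the dehydrogenase that passes the electrons to ubiquinone, read 314, 242, 380 and 319 against 296, 231, 183 and 334, a log2 fold change of -0.29 with an interval from -0.74 to 0.17.

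Among the lipolysis genes, those of the first step had log2 fold changes below 0 and that of the last step had the highest of the 30. Pnpla2, adipose triglyceride lipase, which starts the breakdown of triglyceride, read 777, 821, 748 and 632 in control and 482, 556, 626 and 884 in GR_KO muscle. In Pnpla2 3 GR_KO arrays lay below every control and GR_KO replicate 4 lay above every control (log2 fold change -0.26, 95% interval from -0.66 to 0.15). Without GR_KO replicate 4 its log2 fold change was -0.43. Its coactivator gene Abhd5 read 247, 179, 228 and 201 against 218, 141, 175 and 141, a log2 fold change of -0.35 ± 0.18 (SE, limma adjusted p = 0.880). Its second probe set above the signal filter had 0.04, so its probe sets differed in sign.

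Mgll, monoglyceride lipase, which frees the last fatty acid of the chain of lipolysis, read 683, 804, 688 and 354 in control and 723, 860, 984 and 1139 in GR_KO muscle. GR_KO replicates 2, 3 and 4 lay above all controls, GR_KO replicate 1 lay between controls, and control replicate 4 lay well below every other array. The mean was 632 ± 194 in control and 926.5 ± 177 in GR_KO muscle (SD, n = 4), and the log2 fold change was 0.60 ± 0.24 (SE, limma unadjusted p = 0.0329, adjusted p = 0.880). Its further probe sets above the filter had 0.37 and 0.70. At the one with 0.37 the GR_KO arrays read 445, 462, 612 and 552 and the controls 429, 443, 424 and 308. The groups did not overlap there, with the lowest GR_KO array at 445 and the highest control at 443. They overlapped at the brightest probe set and at the one with 0.70. Without control replicate 4 the log2 fold change at the brightest probe set was 0.34, the lowest of all left-out arrays, and without control replicate 2 it was 0.73.

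The 2 enzymes of the last step of triglyceride synthesis had log2 fold changes of opposite sign. Dgat1 read 128, 130, 126 and 112 in control and 127, 159, 160 and 159 in GR_KO muscle. Its GR_KO arrays split into 3 close together above all controls and GR_KO replicate 1 within the control range (log2 fold change 0.28 ± 0.14, SE, limma unadjusted p = 0.0730, adjusted p = 0.880). Dgat2 read 156, 154, 198 and 199 against 122, 144, 121 and 161. In Dgat2 3 GR_KO arrays lay below all controls and GR_KO replicate 4 above 2 of them. The mean of Dgat2 was 177 ± 25.1 against 137 ± 19.2 (SD, n = 4), a log2 fold change of -0.37 ± 0.16 (SE, limma unadjusted p = 0.0434, adjusted p = 0.880). The second probe sets had 0.19 for Dgat1 and -0.30 for Dgat2, the same signs as the first.

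Promoters are shown for the genes more than 0.3 from 0 that hold a core motif of a hormone receptor, so that the letters can be read beside the values above. RefSeq promoter entries for the GRCm38.p6 build, 250 bases before to 50 after a start, matched 26 of the 32 genes, with 32 entries. Motifs were searched on both strands. AGGTCA, the core motif of PPAR and other nuclear receptors, was in 18.8% of the 32 entries and 16.3% of all 32851. AGAACA, the core motif of the glucocorticoid receptor, was in 15.6% of the 32 entries and 19% of all. TNAAGGTCA, the element of the estrogen-related receptors, which contains AGGTCA, was in 1 entry, of Acsl6, and in 1.28% of all entries. The PPAR element, a direct repeat of AGGTCA with 1 base between, and the full glucocorticoid element, AGAACA and its mirror copy on the other strand with 3 bases between, were in 0 of the 32 entries and in 0.0396% and 0.00913% of all. Of the 8 genes more than 0.3 from 0, 7 had an entry, and 4 of these had a core motif in the 250 bases before the start. These bases are given 5′ to 3′ on the strand of the gene, with the core motif in capitals. All 4 matches are on the other strand, where TGACCT reads as AGGTCA and TGTTCT as AGAACA.
Mgll, chr6:88724162-88724411, plus strand: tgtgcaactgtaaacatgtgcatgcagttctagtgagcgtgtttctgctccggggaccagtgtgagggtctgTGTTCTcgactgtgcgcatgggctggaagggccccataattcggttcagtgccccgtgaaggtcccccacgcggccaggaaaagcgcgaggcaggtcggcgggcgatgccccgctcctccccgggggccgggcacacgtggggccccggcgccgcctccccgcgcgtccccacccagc
Abhd5, chr9:122351366-122351615, plus strand: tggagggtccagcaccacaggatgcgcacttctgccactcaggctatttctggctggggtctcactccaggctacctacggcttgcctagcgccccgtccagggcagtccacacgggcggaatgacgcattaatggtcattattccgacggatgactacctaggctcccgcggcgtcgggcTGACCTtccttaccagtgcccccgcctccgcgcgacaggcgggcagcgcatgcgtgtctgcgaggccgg
Acadm, chr3:153944644-153944893, minus strand: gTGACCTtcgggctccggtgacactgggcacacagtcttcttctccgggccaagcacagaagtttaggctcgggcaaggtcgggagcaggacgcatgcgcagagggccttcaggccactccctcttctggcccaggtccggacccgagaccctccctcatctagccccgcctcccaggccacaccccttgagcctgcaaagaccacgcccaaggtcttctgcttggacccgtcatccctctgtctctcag
Cd36, chr5:17835897-17836146, minus strand: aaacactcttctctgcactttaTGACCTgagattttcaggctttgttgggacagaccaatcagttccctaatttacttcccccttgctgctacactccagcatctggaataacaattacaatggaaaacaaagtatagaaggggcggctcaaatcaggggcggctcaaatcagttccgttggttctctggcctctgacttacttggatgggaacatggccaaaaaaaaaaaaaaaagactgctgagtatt
A match is a description of letters in this window. Mgll, whose log2 fold change was 0.60, has the glucocorticoid core motif at the start shown but neither motif at its second start (chr6:88724454-88724703), and Abhd5, Acadm and Cd36, with -0.35, -0.31 and -0.37, have AGGTCA. Acads, Ehhadh and Etfa had neither in this window. Among the genes within 0.3 of 0, AGAACA was in entries of Acsl5, Acsl6, Hadh and Mlycd, with log2 fold changes of -0.03, -0.17, -0.08 and 0.26. AGGTCA was in entries of Acadvl, Acsl6 and Echs1, with 0.02, -0.17 and -0.25.

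Arrays of a group differed for many of the 30 genes at once. Control replicate 4 was the lowest control for 17 genes, among them Mgll, Acads, Mlycd, Hadha and Acaa2, and the highest control for 5, which were Acsl6, Acadm, Hadh, Etfa and Dgat2. Control replicate 3 was the highest control for 12 genes. GR_KO replicate 4 was the highest GR_KO array for 16 genes and the lowest for 0, while GR_KO replicate 1 was the lowest for 13 and GR_KO replicate 2 the highest for 0. The median of the 30 centred log2 signals was 0.02, -0.00, 0.17 and -0.09 on the control arrays and -0.09, -0.12, -0.01 and 0.20 on the GR_KO arrays. The groups overlapped in this median, and the spread within each group was wider than the distance between them. The 2 arrays with the highest medians, control replicate 3 and GR_KO replicate 4, also had the lowest ratios of 3′ to 5′ signal of beta-actin, 0.991 and 1.07, where the other arrays had from 1.38 to 1.84. The part of RNA integrity in these medians was not tested.

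**Figure D3:**
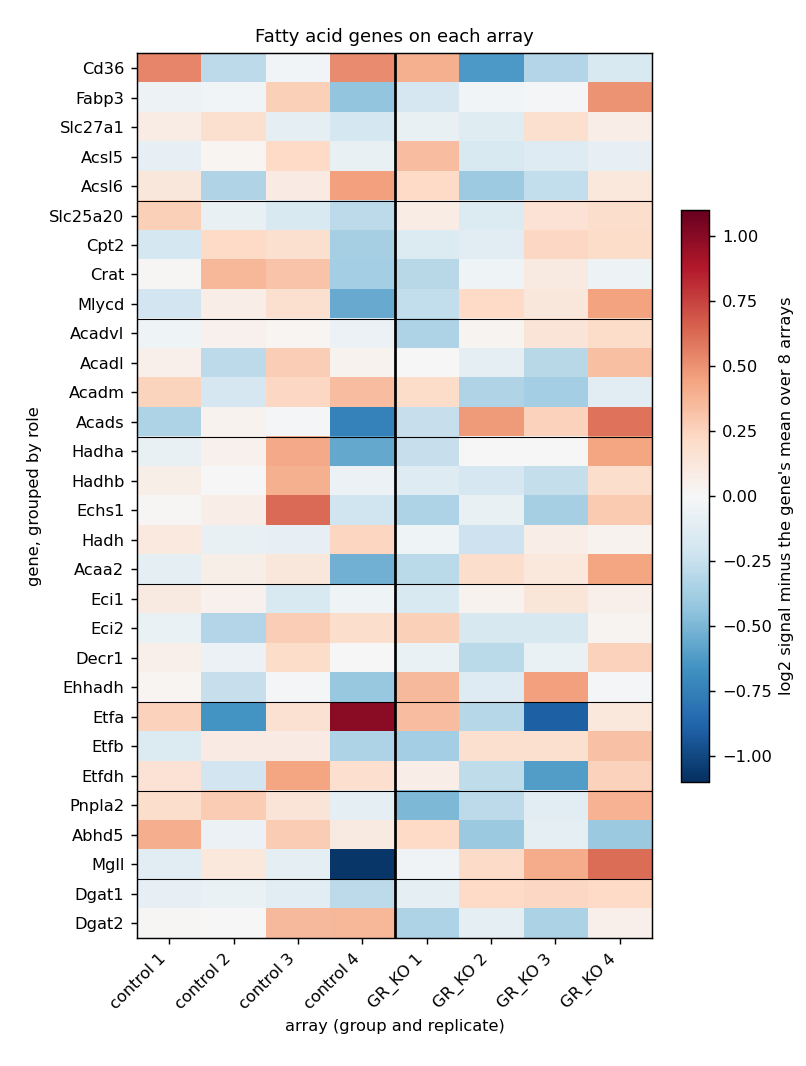
Log2 signal of each of the 30 genes on each array minus the gene's mean over the 8 arrays (red higher, blue lower), with control arrays left and GR_KO arrays right of the black line and thin lines between roles. Control replicate 4 has the lowest value of the map for Mgll (-1.07) and the highest for Etfa (0.99), and GR_KO replicate 4 is the highest GR_KO array for 16 genes.

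Other cell types of the muscle were followed beside these values. The 10 endothelial markers had a summed signal of 3339 to 4428 on the control arrays and 4569 to 6598 on the GR_KO arrays, with no overlap. Of these markers 9 had a log2 fold change above 0, where 52.2% of all genes tested did, and 0 passed an adjusted p of 0.05. An unadjusted p under 0.05 was found for 4 of the 10, where 4.63% of all genes had one, and 2 of the 10, Cldn5 and Sox18, had groups that did not overlap, where 2.58% of all genes did. Their score was lowest on control replicate 4 (-0.51) and highest on GR_KO replicate 4 (0.61), which were also the lowest and highest arrays for Mgll and Acads. Capillary endothelium is known to express Cd36, which was lower on average in GR_KO muscle, and the part of endothelial RNA in Cd36, Mgll and Acads was not tested.

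Of 10 adipocyte markers 7 had a probe set, and Lep, Cidec and Pparg were below the signal filter. The defining marker Adipoq read 19 to 87 in control and 19 to 59 in GR_KO muscle, and the summed signal of the 7 markers, most of it from Fabp4, which endothelium also makes, was 2327 to 5645 against 2234 to 3806. None of these 7 was listed at 0 on all arrays, and Lep was lowest, at 1 to 4. The 12 slow or oxidative fibre markers, which mark fibres rich in fatty acid oxidation, had a summed signal of 23755 to 41423 in control and 31049 to 32739 in GR_KO muscle. The GR_KO range of this sum lay within the control range, and the scores ran from -0.86 to 0.71 in control and from -0.01 to 0.14 in GR_KO muscle. Genes of mitochondrial content, such as Cs and Vdac1, had a median log2 fold change of 0.05, and 0 of the 9 tested passed an adjusted p of 0.05. Of these 1, Sdha, was lower at an unadjusted p under 0.05, where 2.26% of all genes tested were. Its groups did not overlap, 3783 to 4246 against 2806 to 3658, where 1.29% of all genes were lower in this way. The summed signal of 8 macrophage markers was 505 to 717 against 553 to 697.

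**Figure D4:**
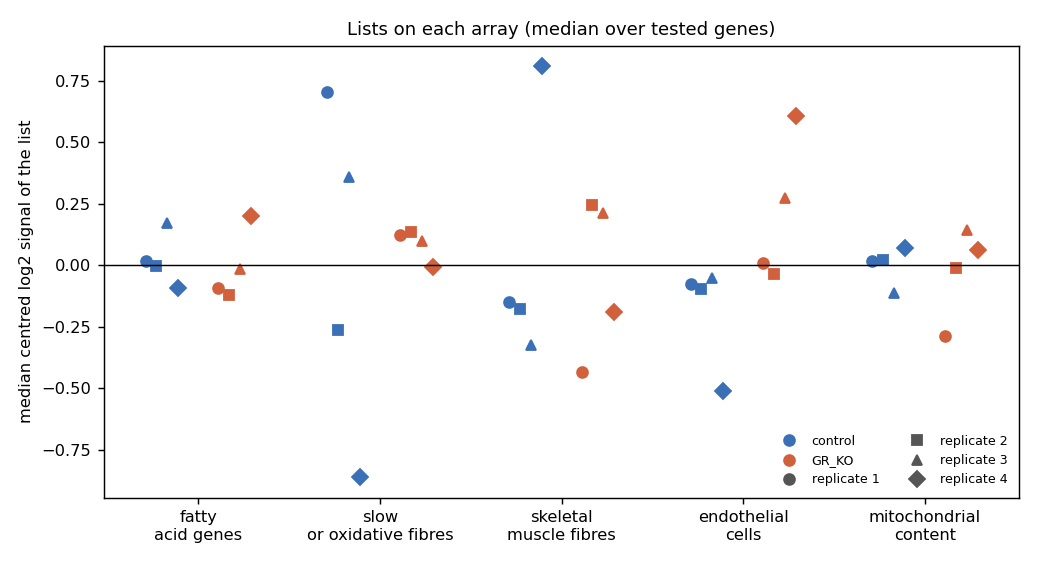
Median centred log2 signal on each array (y axis) of the 30 fatty acid genes and of 4 marker lists, for control (blue) and GR_KO (orange) arrays, with 1 marker shape per replicate number. The fatty acid genes lie between -0.12 and 0.20; control replicate 4 (blue diamond) is lowest for slow or oxidative fibres (-0.86) and endothelial cells (-0.51) and highest for skeletal muscle fibres (0.81).

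Probe sets of 1 gene did not always have the same sign. Of the 30 genes, 15 had more than 1 probe set above the signal filter, and in 9 of these the log2 fold changes fell on both sides of 0. The range within a gene had a median of 0.21 and was largest for Hadh, 0.64, where a dim probe set read 58, 4, 26 and 62 in control and 30, 36, 33 and 49 in GR_KO muscle. The 3 genes under an unadjusted p of 0.05 at the brightest probe set included Acads with 1 probe set, while the signs were the same at all probe sets above the filter for Mgll and Dgat2. Cd36, Fabp3, Hadhb and Dgat1 also had probe sets of 1 sign. The brightest probe sets of Mgll, Dgat1 and Acaa2 are of the _s_at kind, whose probes can match more than 1 transcript. Those of Angptl4 and Plin5, given below, are of this kind too.

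**Figure D5:**
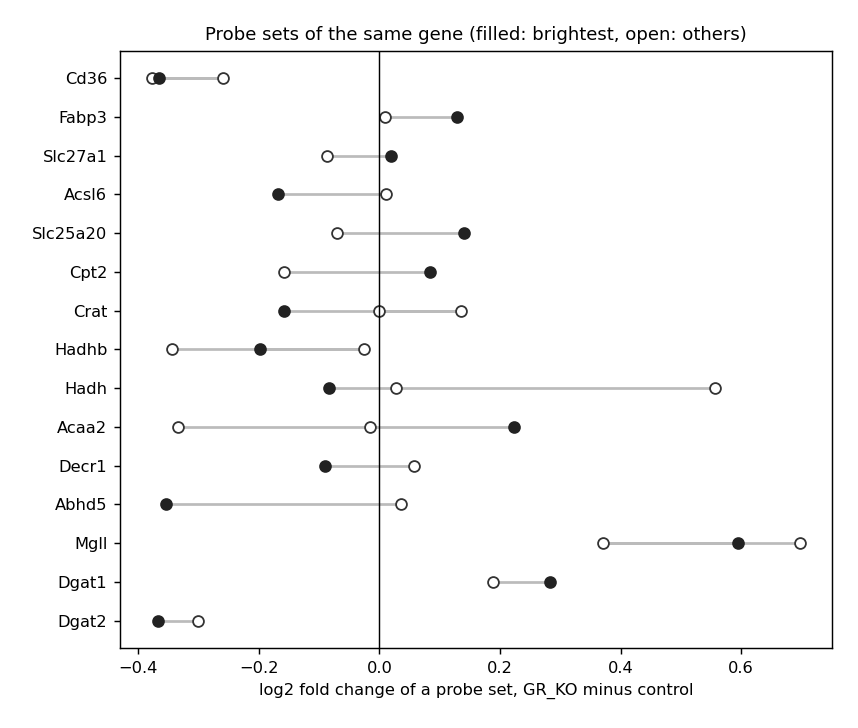
Log2 fold change, GR_KO minus control, of each probe set above the signal filter, for the 15 genes with more than 1; filled points are the brightest probe set and open points the others. The probe sets of 9 genes lie on both sides of 0, with the largest range for Hadh (0.64), while those of Mgll lie between 0.37 and 0.70.

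The rest of the pathway was read from 5 further lists with 71 tested genes. Of these, 0 passed an adjusted p of 0.05 in limma, and 10, or 14.1%, came under an unadjusted p of 0.05, 3 higher and 7 lower in GR_KO muscle, where all genes tested gave 2.37% higher and 2.26% lower. The log2 fold change was above 0 for 36 genes and below 0 for 35, with a median of 0.01. Groups did not overlap for 1 gene higher, Gpat3, and 3 lower, Plin4, Lpin1 and Bdh1, where 1.28% of all genes tested were higher and 1.29% lower in this way. The lists were chosen with earlier results of these data known.

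Lipid droplet and further lipolysis genes numbered 14 tested, 8 above 0 and 6 below. Plin4, a coat protein of lipid droplets, read 1301, 1222, 1241 and 1027 in control and 631, 900, 760 and 1006 in GR_KO muscle, and every GR_KO array lay below every control (log2 fold change -0.56 ± 0.16, SE, limma unadjusted p = 0.00561, adjusted p = 0.850). Plin5, which ties droplets to mitochondria and binds the coactivator Abhd5, read 134, 53, 89 and 86 against 61, 42, 40 and 61 (log2 fold change -0.78 ± 0.28, adjusted p = 0.880), and a second probe set had -0.71. Of 9 tested genes of glyceride synthesis, 7 had a value above 0. Gpat3, an acyltransferase of the first step, read 46, 43, 39 and 41 against 59, 63, 60 and 75 (log2 fold change 0.60 ± 0.18, adjusted p = 0.850). Lpin1, the phosphatase that makes diacylglycerol, read 2419, 2114, 1958 and 1822 against 1302, 1663, 1584 and 1580 (log2 fold change -0.44 ± 0.14, adjusted p = 0.873), with -0.41 at its second probe set. The GR_KO arrays lay wholly above the controls for Gpat3 and wholly below them for Lpin1.

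Further mitochondrial genes, 22 tested, had 10 values above 0 and 12 below. Bdh1, which interconverts the ketone bodies, read 106, 125, 135 and 78 against 63, 59, 41 and 75, a log2 fold change of -0.90 ± 0.23 (SE, limma adjusted p = 0.777), and Acss1, the mitochondrial acetyl-CoA synthetase, had -0.65 ± 0.19 (adjusted p = 0.850). Of 14 tested peroxisomal genes, 6 were above 0 and 8 below, and the 2 with the smallest p were Phyh, of alpha-oxidation, at -0.42, and the carnitine octanoyltransferase gene Crot, at -0.57 (adjusted p = 0.880 for both). Of 12 tested genes of lipoprotein lipase action and further uptake, 5 were above 0. Angptl4, an inhibitor of lipoprotein lipase, read 86, 24, 101 and 43 against 84, 87, 183 and 201 (log2 fold change 1.23 ± 0.45, adjusted p = 0.880). Gpihbp1, which holds the lipase on capillary endothelium, read 803, 870, 786 and 474 against 776, 803, 1175 and 1288. Its log2 fold change was 0.46 ± 0.23, and control replicate 4 was its lowest array. None of these named genes passed the threshold over all genes tested.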

How the data were processed

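Total RNA of 8 gastrocnemius samples was hybridised as biotin-labelled cRNA. The authors deposited linear signal intensities, and the submitters' processing notes name MAS5, with no version or scaling target. Signals were rounded to whole numbers, and the arrays shared a trimmed mean of 100.0. Control probe sets (64 of 45101) were left out. Log2 was taken with no pseudocount, and zeros were set to 1. Symbols came from the platform annotation, updated by gene identifier through RefSeq, GRCm38.p6 (34741 of 34945 single-symbol probe sets). The test took the 11062 of 18193 genes with a mean log2 signal over the probe set median (19.4 as a signal). The test was limma 3.58.1 in R 4.3.3 (lmFit, eBayes with trend, group only), two-sided, and was tested on simulated data. With 200 changed genes in each simulated run, an adjusted p under 0.05 was reached by 14.4% of log2 changes of 0.58 and 55% of changes of 1. In the data 6 genes passed, and with fewer genes passing the adjustment is stricter. The simulated noise was drawn separately for each gene, without shifts shared by the genes of an array. The shares that these data would give were not tested and may be lower. Its p-values were adjusted by Benjamini-Hochberg over the 11062 genes, and 0.05 was the threshold. The number of arrays limits the precision.

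The genes and lists were chosen with earlier results of these data known. Named genes are all members, Nr3c1, and of each further list those past the threshold and the 2 with the smallest p. Promoters printed were chosen after the values were seen. Alternatives covered normalization, pseudocount, filter, probe set choice, variance prior, array weights, a replicate block and each array left out.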

Additional observations from a re-analysis of the deposited data

Results flagged for a closer look

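In 2 of the 60 sets of 4 arrays examined, 1 array lay far from the other 3, where chance gives about 1 in 20. Acsl5 read 132 on GR_KO replicate 1 and 93 to 98 on the other GR_KO arrays. Dgat1 read 127 on GR_KO replicate 1 and 159 to 160 on the others.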

How the results depend on the processing

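None of the 30 genes passed an adjusted p of 0.05 under any alternative or with any array left out (lowest adjusted p = 0.419). The count of genes past it over the whole table, 6, was 0 with no filter (857 at an unadjusted p under 0.05), 1 with probe sets averaged, 2 with the second brightest probe set or without trend, and 10 with array weights. Replicate numbers did not pair the arrays: deviations of same-numbered arrays correlated at -0.19, 0.18, 0.11 and -0.39, and no control correlated best with its own number. With the replicate block 1 gene passed. The count ranged from 0 to 5 with single arrays left out, being 0 without control replicate 1 or 3 or GR_KO replicate 2 or 4 (unadjusted, 389, 510, 329 and 350), 3 when control replicate 2 was left out and 2 when GR_KO replicate 3 was. Of the 30 genes, 3 had an unadjusted p below 0.05, against 0 with median centring and 5 with array weights. This count ranged from 0 without control replicate 4 or GR_KO replicate 3 to 6 without control replicate 2 or GR_KO replicate 1, and was 1 without GR_KO replicate 2. Of the 30 genes, 14 kept their sign throughout, among them Mgll, Acads, Dgat1, Dgat2, Cd36, Acadm and Etfa. Some alternatives could not change a sign. Acads, Acadm, Etfa, Mlycd, Echs1, Ehhadh and Etfb have 1 probe set, so the probe set choice left their values as they were. Etfdh and Pnpla2 had no second probe set above the filter to put in its place. The filter, variance prior and replicate block do not alter a log2 fold change. With quantile normalization Acsl5 had 0.024, Acadvl -0.019 and Eci1 -0.0055. With probe sets averaged Slc27a1 had -0.034, Cpt2 -0.037, Acadl 0.24, Hadh 0.17 and Acaa2 -0.042. With the second brightest probe set Slc27a1 had -0.087, Acsl6 0.011, Slc25a20 -0.070, Cpt2 -0.16, Crat 0.14, Hadh 0.027, Acaa2 -0.016, Decr1 0.057 and Abhd5 0.036. With array weights Hadha had -0.0039. With single arrays left out, ranges that crossed 0 were -0.014 to 0.24 for Fabp3, -0.044 to 0.082 for Slc27a1, -0.15 to 0.035 for Acsl5, -0.025 to 0.17 for Cpt2, -0.042 to 0.14 for Acadvl, -0.16 to 0.055 for Acadl, -0.084 to 0.24 for Hadha, -0.020 to 0.091 for Eci1 and -0.15 to 0.050 for Eci2. The cause of these changes was not tested.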
